A study of Mus musculus with 11 samples.

Results

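The genes described here are Apoe, the genes of its receptors Lrp1, Lrp8 and Vldlr, the cholesterol efflux transporters Abca1 and Abcg1, the lipoprotein lipase gene Lpl, the LXR nuclear receptor genes Nr1h2 and Nr1h3, and the oxysterol enzyme gene Ch25h. They were taken by symbol from the count tables, 10 genes of the 36529 listed. The cells were BV2, a mouse microglial line of the C57BL/6 strain kept in serum-containing medium, and total RNA of 11 samples was sequenced. In one experiment, 3 samples named ApoE4 were incubated for 5 h with 25 µg/ml of a fragment holding residues 1 to 151 of ApoE4 (nApoE4), and 3 untreated samples named ControlA served as their controls. In a second experiment, 2 samples named ApoE3 received the same dose of the matching ApoE3 fragment (nApoE3) for the same time, and 3 untreated samples named ControlB served as controls. Both fragments were purified by a contractor through a His tag, and differ from each other at a single amino acid. The labels name a PBS vehicle and the methods conditioned media for the controls, so what the untreated cells received is not known here. Each fragment was used in 1 experiment, so fragment and experiment cannot be told apart. The labels do not say whether the samples of a group came from separate cultures, so p-values measure the spread between these samples, which may be technical.

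The samples held 39732710 to 44162511 counts on genes in the nApoE4 experiment and 55809688 to 69768666 in the nApoE3 experiment, where 3 counts correspond to a level between 0.043 and 0.0755 CPM. CPM, the unit of level used throughout, is a gene's count scaled to the same library total in every sample. Of 13 microglia and macrophage markers, 10 passed a mean of 1 CPM in ControlA and in ApoE4 samples, and 9 in ControlB and in ApoE3 samples. The group means of Aif1 (0.030 to 0.096 CPM) and Cx3cr1 (0.12 to 0.60 CPM) were under 1 CPM in every group. That of Trem2 was under 1 CPM in ControlB (0.72) and ApoE3 samples (0.52). P2ry12, a marker of resting microglia in tissue, had no count in any sample. Whether its span lies within another listed gene, where a 0 gives no measure of RNA as for Vldlr below, was not examined. The summed level of these markers was 3700 to 4100 CPM in ControlA samples, 3800 to 3890 in ApoE4, 2700 to 2820 in ControlB and 3230 to 3250 in ApoE3. Its part in the results below was not tested. Neuron, astrocyte and fibroblast markers summed to at most 6.39 CPM, oligodendrocyte markers to at most 25.5 CPM and endothelial markers to at most 104 CPM. The defining genes Mog and Cldn5 were at 0. Whether their spans lie within other listed genes was not examined either. ControlA replicates 2 and 3 stood apart in opposite directions, as given beside Lrp1. Genes with long transcripts were low against genes with short ones in replicate 2 and high in replicate 3. In ControlA replicate 1, Trem2, a microglial receptor that binds ApoE, stood at 60.5 CPM, against 2.50 and 1.33 CPM in the other ControlA samples.

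ApoE is the main protein of the lipoproteins that glia secrete, and it carries cholesterol and phospholipid to cells that bind it through endocytic receptors at their surface. Abca1 moves cholesterol and phospholipid out of the cell onto lipid-poor ApoE, and Abcg1 passes cholesterol on to particles that already hold lipid. When sterols accumulate, oxysterols activate the nuclear receptors LXRα (Nr1h3) and LXRβ (Nr1h2), which pair with RXR. They switch on Apoe, Abca1, Abcg1, Lpl and, in some cells, Nr1h3 itself. In macrophages, inflammatory signalling is known to interfere with this program.

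Promoter sequences of 8 of the 10 genes were matched by symbol in the RefSeq table of build GRCm38.p6. Abcg1 and Lpl had no entry. The 250 bases before the first listed start site are printed for 3 genes. They are Abca1, an LXR target that rose with nApoE3, and Apoe, an LXR target that fell with both fragments. The last is Nr1h3, the LXR gene that rose with both. All 3 lie on the minus strand and read 5′ to 3′ toward the start, and capitals mark the motif matches named below. The Abca1 window is chr4:53159896-53160145, the Apoe window chr7:19699189-19699438 and the Nr1h3 window chr2:91195117-91195366. The Nr1h3 window lies inside the gene span given below, which reaches to 91202834, so it belongs to a start within the gene.
Abca1: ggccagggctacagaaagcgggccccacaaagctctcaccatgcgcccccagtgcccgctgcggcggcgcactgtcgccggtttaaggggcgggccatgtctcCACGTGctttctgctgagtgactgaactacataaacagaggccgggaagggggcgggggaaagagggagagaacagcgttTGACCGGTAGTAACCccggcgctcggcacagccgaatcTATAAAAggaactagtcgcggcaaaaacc
Apoe: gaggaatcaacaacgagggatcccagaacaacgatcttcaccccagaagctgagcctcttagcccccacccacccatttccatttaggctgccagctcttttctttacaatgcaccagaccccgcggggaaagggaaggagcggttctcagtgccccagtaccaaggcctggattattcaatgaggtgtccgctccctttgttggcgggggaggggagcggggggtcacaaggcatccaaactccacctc
Nr1h3: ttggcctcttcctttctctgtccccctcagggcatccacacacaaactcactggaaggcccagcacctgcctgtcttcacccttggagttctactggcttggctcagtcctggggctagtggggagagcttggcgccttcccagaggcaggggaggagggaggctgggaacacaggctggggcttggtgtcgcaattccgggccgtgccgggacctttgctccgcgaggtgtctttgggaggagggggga

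Both strands of all 32851 windows of this length were searched. In the Abca1 window, an LXR element, spelled as GGTTAC and GGTCA with 4 bases of any kind between them, lay on the opposite strand at -67 to -53 from the start. It was found in 12 windows (0.0365%), and its letters were chosen after the Abca1 sequence had been seen. The core site AGGTCA, which LXR and other nuclear receptors bind, occurred in 14.02% of the windows, and among the genes described here in 1, at -229 to -224 of the third start of Lrp8. The E-box CACGTG, a palindrome, lay at -147 to -142 of Abca1 and occurs in 6.02% of windows, and the TATA box TATAAAA lay at -29 to -23 of Abca1 and occurs in 4.98%. A TATA box match also lay at -101 to -95 of the second Apoe start, on the opposite strand. The AP-1 letters TGANTCA, the NF-kB site and the ISRE, spelled as GAAA and GAAA with 2 bases between them, which 6.75%, 7.25% and 2.98% of windows held, did not occur in the windows of the 8 genes. The printed Apoe and Nr1h3 windows held none of these motifs.

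Per length of transcript, Apoe and Lpl stood far above the other genes in every group. In CPM per kb of merged exons, the level of Apoe was 853 ± 76.8 (SD, n = 3) in ControlA, 675 ± 31.5 (n = 3) in ApoE4, 1127 ± 34.1 (n = 3) in ControlB and 762 ± 23.4 (n = 2) in ApoE3 samples. On the same scale Lpl followed, from 331 ± 13.9 in ControlA to 235 ± 5.96 in ApoE3. The remaining 6 measured genes lay between 3.65 and 35.3 CPM per kb, and their order changed from group to group. In ControlA the order was Lrp1, Nr1h2, Abcg1, Abca1, Nr1h3 and Lrp8, with no overlap between neighbours. With nApoE4, Lrp1 at 20.0 ± 3.17 and Nr1h2 at 19.0 ± 0.365 CPM per kb overlapped, and Abcg1 stood below Abca1 and Nr1h3. In ControlB, Nr1h3 was the third of the 8, and Abcg1 and Nr1h2 overlapped at 14.3 ± 0.368 and 13.97 ± 0.0994 CPM per kb. With nApoE3, Nr1h3 at 29.4 ± 0.208 and Abca1 at 20.0 ± 0.564 CPM per kb stood above Nr1h2 and Lrp1. Vldlr and Ch25h were at or near 0.

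**Figure D1:**
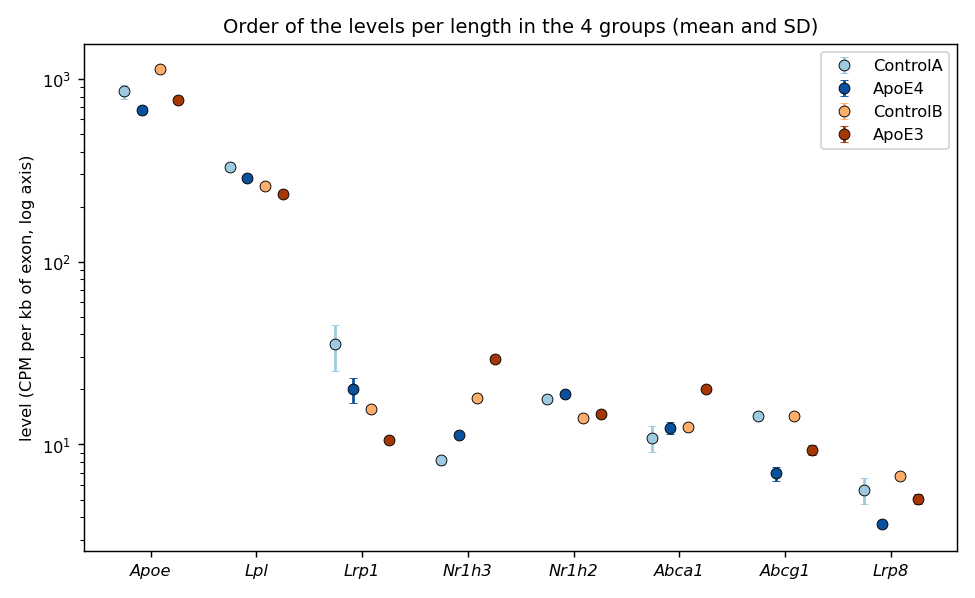
Levels of the 8 measured genes in CPM per kb of exon (log axis), as mean and SD of the samples of each group. Apoe and Lpl stand above 200 CPM per kb in all 4 groups, and the other genes lie between 3.65 and 35.3.

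Against ControlA, nApoE4 samples held less Apoe, Lrp1, Lrp8, Abcg1 and Lpl RNA and more Nr1h3 RNA. Of the 8 genes with enough counts to be tested, 1 was higher and 5 were lower by edgeR's quasi-likelihood test at an adjusted p under 0.05, where 57.2% of all 14240 genes tested passed. Against ControlB, nApoE3 samples held less of the same 5 and more Abca1 and Nr1h3. There, 2 of the 8 genes were higher and 5 lower, where 67.7% of all 14817 genes passed. With only 8 genes, the shares called are not read as a trait of this set, and no test was made of them. The median log2 fold change of the 8 genes was -0.27 with nApoE4 and -0.29 with nApoE3, beside 0.0013 and -0.0026 over all genes. Because the RNA is of whole samples, fewer cells of a kind and less RNA per cell cannot be told apart.

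**Figure D2:**
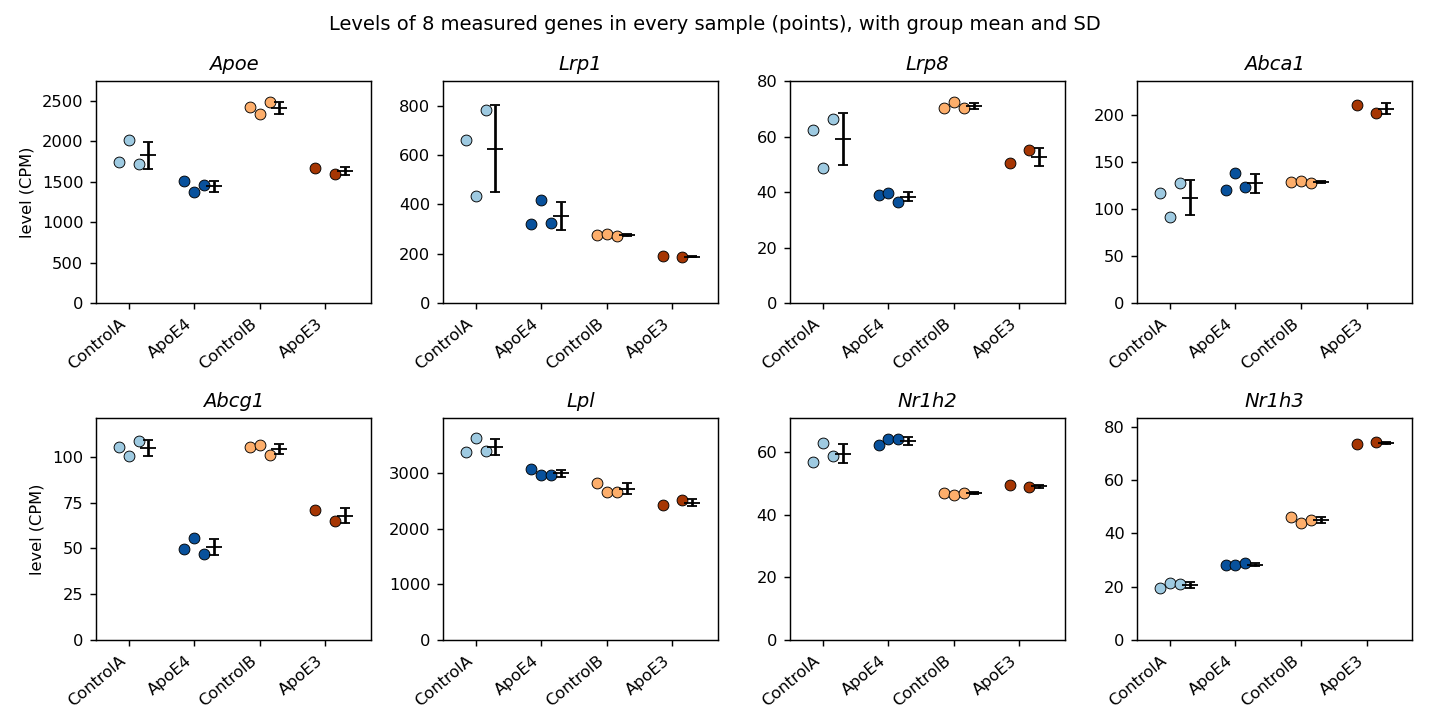
Level of each of the 8 measured genes in CPM (linear axis from 0), 1 point per sample, with the group mean and SD as a bar to the right of the points. Abcg1 stands at 100.2 CPM or more in all untreated samples and at 70.9 or less in all treated ones, and Nr1h3 is higher in the treated samples of each experiment.

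Apoe, at chr7:19696109-19699188 on the minus strand with 5 merged exons, encodes the lipoprotein ligand itself, and the counts here are of the mouse gene, not of the added fragments. Its level was 1740, 2013 and 1719 CPM in the ControlA samples and 1505, 1371 and 1454 CPM in the ApoE4 samples. In the second experiment it was 2415, 2335 and 2481 CPM untreated and 1665 and 1594 CPM with nApoE3. Every treated sample lay below every control of its experiment, and the ControlB samples were the highest of all. The log2 fold change was -0.33 (SE 0.082, adjusted p = 0.00649) with nApoE4, a 1.26-fold fall, and -0.57 (SE 0.026, adjusted p = 1.04e-09) with nApoE3, a 1.49-fold fall.

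Lrp1, at chr10:127538161-127621148 on the minus strand with 88 merged exons, encodes a large endocytic receptor that takes up ApoE particles. It stood at 660, 434.1 and 782.6 CPM in ControlA samples and at 319.8, 419 and 324 CPM with nApoE4. Untreated cells of the second experiment held 275.9, 281.5 and 270.5 CPM, and cells with nApoE3 189.8 and 187.3 CPM. The treated samples were again below all of their controls, although the highest nApoE4 sample came within a few percent of the lowest ControlA sample. Lrp1 fell by 0.82 on the log2 scale (SE 0.194, adjusted p = 0.00525) with nApoE4 and by 0.56 (SE 0.024, adjusted p = 7.41e-10) with nApoE3.

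The spread of Lrp1 in ControlA was wide, with a coefficient of variation of 28.3%, and it moved with transcript length. In ControlA replicate 2, the median of 2026 genes with over 8 kb of exons lay 0.41 log2 units lower against that of 1433 genes with under 2 kb, each taken relative to the other libraries of the group. In ControlA replicate 3 the same difference was 0.32 log2 units higher, and in the other 9 libraries it lay between -0.09 and 0.15. Lrp1, with 17.7 kb of exons, deviated by -0.73 in replicate 2 and by 0.55 in replicate 3. Abca1, with 10.4 kb, deviated by -0.42 and 0.30, and Lrp8, with 10.5 kb, by -0.40 and 0.27. Lpl, with 10.48 kb, deviated the other way, by 0.10 and -0.04. The part of this length difference in the results was not tested. Without ControlA replicate 2 the log2 fold change of Lrp1 with nApoE4 was -1.03, and without ControlA replicate 3 it was -0.63. These were the extremes over all fits that left out 1 library, with adjusted p up to 0.0299.

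**Figure D3:**
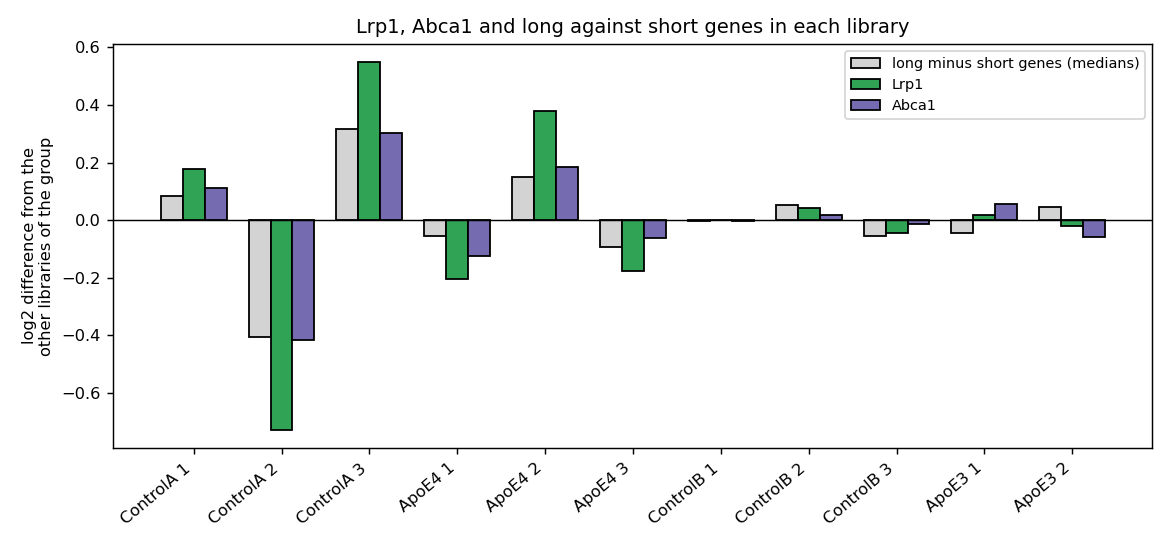
For each library, the log2 difference from the other libraries of its group of long against short genes (medians, grey), of Lrp1 (green) and of Abca1 (purple). The grey bar is -0.41 in ControlA replicate 2 and 0.32 in ControlA replicate 3, and Lrp1 and Abca1 deviate in the same direction there.

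Lrp8, at chr4:107802261-107876840 on the plus strand with 24 merged exons, encodes apoER2, a receptor for ApoE and reelin. Its level in ControlA was 62.6, 48.7 and 66.5 CPM and in ApoE4 samples 38.9, 39.7 and 36.6 CPM. ControlB samples held 70.3, 72.4 and 70.5 CPM and ApoE3 samples 50.6 and 55.1 CPM. In neither experiment did the groups overlap, and the highest levels were those of ControlB. The fall was 0.62 on the log2 scale with nApoE4 (log2 fold change -0.62, SE 0.107, adjusted p = 0.000784) and 0.43 with nApoE3 (log2 fold change -0.43, SE 0.038, adjusted p = 6.13e-07). The span of Lrp8 holds the antisense gene Lrp8os2 whole, which had no count, and whether the counting used strand is not given in the sources used here.

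Vldlr, the third receptor, which binds ApoE particles rich in triglyceride, had 0 counts in all 11 samples. Its span lies wholly within that of Gm35438, a listed long noncoding RNA with 0 to 10 counts per sample. Of 713 protein-coding genes whose span lay wholly within another listed gene, 678 (95.1%) had no count in any sample, against 2571 of 14233 (18.1%) that overlapped none. The 0 of Vldlr, like that of Insig1, Gpr183 and Lipe among the pathway genes, which lie in such spans too, therefore gives no measure of its RNA. Ch25h, which makes the oxysterol 25-hydroxycholesterol and whose span overlaps no other listed gene, had 1, 0 and 0 counts in ControlA, 4, 1 and 2 in ApoE4, 0, 0 and 1 in ControlB and 2 and 1 in ApoE3 samples. All samples but 1 were at or under 3 counts, so no fold change is given.

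Abca1, at chr4:53030787-53159895 on the minus strand with 50 merged exons, encodes the transporter that loads ApoE with lipid. In ControlA it stood at 117.5, 92.0 and 128.3 CPM and with nApoE4 at 120.2, 138.6 and 123.8 CPM. The second experiment gave 128.6, 129.9 and 128.1 CPM untreated and 211.3 and 203.1 CPM with nApoE3. The groups overlapped with nApoE4, while both nApoE3 samples lay well above all other samples of either experiment. Abca1 rose 1.60-fold with nApoE3 (log2 fold change 0.68, SE 0.025, adjusted p = 1.58e-10). With nApoE4 the log2 fold change was 0.18 (95% interval -0.07 to 0.44, adjusted p = 0.2), and it was 0.28 (adjusted p = 0.0449) without ControlA replicate 3, the library in which long genes were high, and 0.05 (adjusted p = 0.532) without ControlA replicate 2, in which they were low.

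Abcg1, at chr17:31057675-31117988 on the plus strand with 16 merged exons, encodes the transporter that passes cholesterol to lipid-bearing particles. Its level was 105.3, 100.2 and 108.8 CPM in ControlA and 49.8, 55.7 and 46.8 CPM in ApoE4 samples. ControlB samples held 105.2, 106.2 and 101.1 CPM and ApoE3 samples 70.9 and 64.9 CPM. The untreated levels of both experiments lay in the same range, and every treated sample was far below them. Of the 8 genes, Abcg1 had the largest change with nApoE4, a 2.06-fold fall (log2 fold change -1.04, SE 0.074, adjusted p = 1.82e-06), and it was the one gene of the 8 past a fold of 2, as were 17.7% of all genes tested. With nApoE3 it fell 1.54-fold (log2 fold change -0.62, SE 0.038, adjusted p = 1.94e-08). The efflux genes thus moved in opposite directions with nApoE3, Abca1 higher and Abcg1 lower in every treated sample.

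Lpl, at chr8:68880491-68907448 on the plus strand with 13 merged exons, encodes the lipase that splits triglyceride of lipoproteins. ControlA samples held 3369, 3634 and 3398 CPM and ApoE4 samples 3065, 2955 and 2966 CPM. ControlB samples held 2827, 2654 and 2657 CPM and ApoE3 samples 2420 and 2508 CPM. The treated samples were lower in both experiments without overlap, by a small margin. The log2 fold change was -0.21 (SE 0.070, adjusted p = 0.0297) with nApoE4 and -0.15 (SE 0.026, adjusted p = 0.000334) with nApoE3. The nApoE4 call did not hold without ControlA replicate 1 (adjusted p = 0.0574) or without ApoE4 replicate 1, 2 or 3 (adjusted p = 0.074, 0.0778 and 0.113).

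Of the LXR genes, Nr1h3 rose with both fragments. This gene, at chr2:91184061-91202834 on the minus strand with 9 merged exons, encodes LXRα. Its level was 19.3, 21.4 and 21.1 CPM in ControlA and 27.9, 28.1 and 28.8 CPM in ApoE4 samples. It was 46.1, 44.0 and 45.0 CPM in ControlB and 73.5 and 74.3 CPM in ApoE3 samples. The 4 groups formed separate bands, and even the untreated cells of the second experiment lay above the nApoE4-treated cells of the first. The rise was 1.38-fold with nApoE4 (log2 fold change 0.46, SE 0.064, adjusted p = 0.000182) and 1.63-fold with nApoE3 (log2 fold change 0.71, SE 0.032, adjusted p = 9.02e-10). The span of Nr1h3 overlaps that of Acp2 by 18 bases.

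Nr1h2, at chr7:44549616-44553951 on the minus strand with 7 merged exons, encodes LXRβ, which most tissues express. It was measured at 56.9, 63.0 and 58.9 CPM in ControlA and at 62.3, 64.4 and 64.4 CPM in ApoE4 samples, and these groups overlapped. In the second experiment it was 47.03, 46.48 and 47.08 CPM untreated and 49.4 and 48.9 CPM with nApoE3, without overlap. Neither change passed the test. The log2 fold change was 0.10 (95% interval -0.03 to 0.23, adjusted p = 0.166) with nApoE4 and 0.06 (95% interval -0.0056 to 0.13, adjusted p = 0.0951) with nApoE3, and the former was 0.14 (adjusted p = 0.0364) without ControlA replicate 2.

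**Figure D4:**
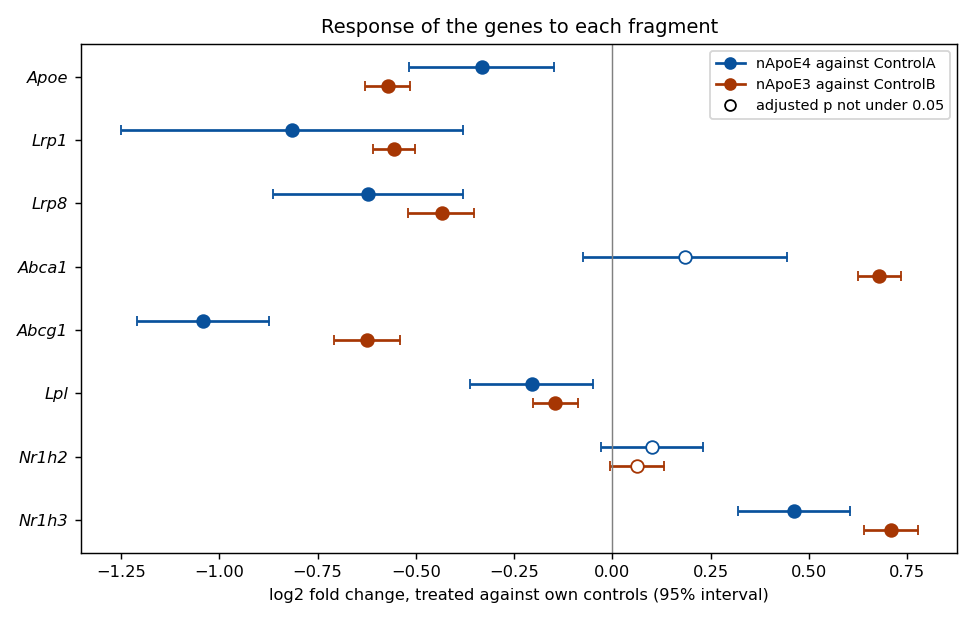
Log2 fold change of each gene against the untreated samples of its own experiment (horizontal axis, 95% interval), for nApoE4 (blue) and nApoE3 (brown). Filled points had an adjusted p under 0.05: Apoe, Lrp1, Lrp8, Abcg1 and Lpl lie below 0 and Nr1h3 above 0 for both fragments, and Abca1 is filled for nApoE3 alone.

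Whether the responses to the fragments differed was tested as the nApoE4 fold change against the nApoE3 fold change over all 11 samples, a contrast in which fragment and experiment cannot be told apart. It was lower for 3 of the 8 genes and higher for none, where 28.3% of all 15287 genes passed. Abcg1 differed by -0.43 on the log2 scale (SE 0.0933, adjusted p = 0.00403), its fall being the deeper with nApoE4. Abca1 differed by -0.51 (SE 0.141, adjusted p = 0.0169) and Nr1h3 by -0.26 (SE 0.0706, adjusted p = 0.0151), their log2 fold changes being smaller with nApoE4. Over all genes 14.4% were higher and 13.9% lower in this contrast, and 5.93% passed with a fold above 2, which none of the 8 did. Abcg1 passed in every fit that left out 1 library, Abca1 did not pass without ApoE3 replicate 1 (adjusted p = 0.0718), and Nr1h3 did not pass without ApoE3 replicate 1 or 2 (adjusted p = 0.0535 and 0.0615).

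For the other genes the intervals bound the difference. That of Apoe was 0.23 (95% interval 0.03 to 0.43, adjusted p = 0.0887), that of Lrp1 -0.27 (95% interval -0.80 to 0.25, adjusted p = 0.452) and that of Lrp8 -0.20 (95% interval -0.49 to 0.09, adjusted p = 0.308). Lpl differed by -0.07 (95% interval -0.22 to 0.08, adjusted p = 0.483) and Nr1h2 by 0.03 (95% interval -0.12 to 0.17, adjusted p = 0.813). Without ControlA replicate 2, the library with low long genes, 6 of the 8 genes passed, the added ones being Apoe at 0.30 (adjusted p = 0.000945), Lrp1 at -0.48 (adjusted p = 0.0107) and Lrp8 at -0.32 (adjusted p = 0.00222). Without ControlA replicate 3, the library with high long genes, Lrp1 moved the other way to -0.08 (adjusted p = 0.809), Lrp8 to -0.11 (adjusted p = 0.54) and Apoe to 0.19 (adjusted p = 0.145).

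The untreated cells of the experiments differed too. Of the 8 genes, 2 were higher and 3 lower in ControlB than in ControlA, where 69.3% of all 14249 genes passed, 34.4% higher and 34.9% lower. Nr1h3 was 2.16-fold higher in ControlB (log2 difference 1.11, SE 0.051, adjusted p = 1.11e-06) and Apoe 1.31-fold higher (log2 difference 0.39, SE 0.067, adjusted p = 0.00107). Lrp1 was 2.29-fold lower (log2 difference -1.20, SE 0.183, adjusted p = 0.000528), and Lpl and Nr1h2 were lower by -0.37 and -0.36 on the log2 scale (adjusted p = 0.000249 and 0.000234). For these 5 genes the untreated groups lay apart without overlap, and for all of them but Apoe this difference was larger in size than the log2 fold change with either fragment, which was not tested. Lrp8 differed by 0.25 (95% interval 0.0064 to 0.49, adjusted p = 0.0636), Abca1 by 0.18 (95% interval -0.07 to 0.43, adjusted p = 0.173) and Abcg1 by -0.02 (95% interval -0.14 to 0.09, adjusted p = 0.661). Lrp8 passed without ControlA replicate 2 (0.13, adjusted p = 0.00844) or 3 (0.34, adjusted p = 0.018), and Abca1 without replicate 3 (0.28, adjusted p = 0.0335), while Abca1 was 0.05 (adjusted p = 0.203) without replicate 2.

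The other genes of the pathway were read from 8 lists with 89 further genes, some of them in 2 lists and 11 of them at 0 in every sample. Of 68 tested with nApoE4, 18 were higher and 34 lower, and of 70 tested with nApoE3, 18 were higher and 37 lower. Over all genes, 28.6% were higher and 28.6% lower with nApoE4, and 33.1% were higher and 34.6% lower with nApoE3. Genes moved both ways in most lists. Log2 fold changes below are given with their SE, and each named gene passed at an adjusted p under 0.05 with treated samples all on one side of their controls, unless stated.

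Among 10 tested LXR target genes other than those above, 8 were lower and 1 higher with nApoE4, and 6 lower and 2 higher with nApoE3, with median log2 fold changes of -0.86 and -0.54. Mertk, a receptor for engulfing dying cells, had the largest change of these 10 genes, from 45.7 ± 6.75 CPM (SD, n = 3) to 9.26 ± 0.572 (n = 3) with nApoE4 and from 95.7 ± 1.03 (n = 3) to 15.4 ± 0.118 (n = 2) with nApoE3. Its log2 fold change was -2.30 (SE 0.111) with nApoE4 and -2.64 (SE 0.035) with nApoE3. Arl4c, a small GTPase, changed by -1.42 (SE 0.061) and -1.84 (SE 0.031), and Scd2, a fatty acid desaturase, by -1.10 (SE 0.069) and -1.65 (SE 0.028). The genes listed as LXR targets were thus not of the same direction with nApoE3. Abca1 and Nr1h3 rose while Apoe, Abcg1, Lpl and these 3 genes fell.

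Of the LXR partners and co-regulators, 4 of 11 were lower and 2 higher with nApoE4, and 9 of 12 lower and 1 higher with nApoE3. Rxra, the partner that LXR binds DNA with, fell from 124 ± 8.56 CPM to 50.9 ± 2.72 with nApoE4 and from 206 ± 2.96 to 64.0 ± 1.04 with nApoE3 (log2 fold changes -1.28, SE 0.071, and -1.69, SE 0.027). Nr1h3 and Rxra, the parts of one dimer, moved in opposite directions with both fragments. Ncoa5 rose by 0.81 (SE 0.056) and Tbl1xr1, a part of a co-repressor complex, changed by -0.64 (SE 0.064) with nApoE4. With nApoE3, Ncoa5 went from 109.5 ± 1.91 to 166.6 ± 1.61 CPM and Tbl1xr1 from 52.9 ± 1.49 to 37.3 ± 1.65 CPM. Ncoa1, a co-activator, changed by -0.81 (SE 0.037) with nApoE3, and went from 56.8 ± 9.34 to 38.7 ± 2.18 CPM with nApoE4.

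Of the other lipoprotein receptors and adaptors, 4 of 15 were higher and 8 lower with nApoE4, and 8 of 16 higher and 7 lower with nApoE3. Dab2, an adaptor that links such receptors to clathrin, changed by -0.90 (SE 0.068) with nApoE4. With nApoE3, Dab2 went from 182.3 ± 3.62 to 123.6 ± 4.41 CPM. Lrp12 rose by 1.15 (SE 0.026) with nApoE3, and went from 64.8 ± 2.53 to 95.6 ± 3.38 CPM with nApoE4. Lrp2, the large receptor megalin, rose by 2.04 (SE 0.136) with nApoE3, from 1.10 ± 0.108 to 4.57 ± 0.221 CPM. With nApoE4, in contrast, Lrp2 changed by -0.79 (SE 0.185, adjusted p = 0.00491). That difference between the responses was -2.85 (SE 0.220, adjusted p = 1.17e-06).

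In the list of efflux and sterol transporters, 6 of 14 genes were higher and 4 lower with nApoE4, and 5 higher and 5 lower with nApoE3. Abca9, a transporter of macrophages, fell from 82.5 ± 10.7 CPM to 33.8 ± 1.07 and from 118 ± 1.76 to 45.3 ± 1.29, log2 fold changes of -1.28 (SE 0.091) and -1.39 (SE 0.031). Gramd1b, which moves cholesterol from the plasma membrane to the endoplasmic reticulum, rose by 1.17 (SE 0.076) and 1.20 (SE 0.029). Pltp, the phospholipid transfer protein, changed by -1.02 (SE 0.201) with nApoE4, and by 0.68 (SE 0.142) with nApoE3. Its untreated levels were low, 2.66 ± 0.421 and 1.88 ± 0.226 CPM. The span of Pltp overlaps by 1515 bases that of Ctsa, which had 53640 to 101915 counts per sample against 43 to 180 for Pltp. The part of this overlap in the Pltp counts was not tested. Abca2, a lysosomal transporter, changed by -0.9965 (SE 0.038) with nApoE3, and went from 70.4 ± 15.95 to 45.5 ± 4.35 CPM with nApoE4.

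Of the genes that store and release cholesterol esters, 1 of 5 was higher and 4 lower with nApoE4, and 3 lower with nApoE3. Nceh1, which hydrolyses cholesterol esters, changed by -1.17 (SE 0.067) and -1.17 (SE 0.024). Soat2, which makes them, rose by 1.30 (SE 0.062) with nApoE4, and Plin2, a coat protein of lipid droplets, changed by -0.67 (SE 0.094). With nApoE3, Soat1, which also makes cholesterol esters, changed by -0.21 (SE 0.022), and Lipa, the lysosomal acid lipase, by -0.15 (SE 0.029). Both were lower with nApoE4 too, Soat1 from 400.4 ± 12.65 to 276.8 ± 4.94 CPM and Lipa from 325.6 ± 8.45 to 263.9 ± 4.14 CPM.

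Of 6 oxysterol genes tested, 3 were lower and 2 higher with nApoE4, and 3 lower and 1 higher with nApoE3. Cyp27a1, which makes 27-hydroxycholesterol, an LXR ligand, changed by -1.13 (SE 0.052) and -0.99 (SE 0.043), and Hsd3b7, which acts further along the way to bile acids, by -0.97 (SE 0.062) and -0.51 (SE 0.072). Cyp46a1 changed by -0.9965 (SE 0.225) with nApoE4. Insig2, which holds SREBP in the endoplasmic reticulum, rose by 0.64 (SE 0.047) with nApoE3. With nApoE4, Insig2 also went up, from 28.3 ± 1.86 to 45.9 ± 3.29 CPM.

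Among 7 genes around lipoprotein lipase, 4 were lower and 2 higher with each fragment. Pparg, a nuclear receptor of lipid storage, changed by -2.47 (SE 0.271) with nApoE4 from a level of 1.45 ± 0.362 CPM, and Cd36, a fatty acid receptor, by -0.91 (SE 0.153). Fabp4, a fatty acid carrier, rose by 0.72 (SE 0.096) and 0.55 (SE 0.037). Fabp5, a related carrier, changed by -0.38 (SE 0.023) with nApoE3, and went from 725.7 ± 84.9 to 579.4 ± 42.1 CPM with nApoE4. Sel1l moved in opposite directions. It changed by -0.22 (SE 0.024) with nApoE3 and went up from 221.9 ± 10.0 to 308.2 ± 10.1 CPM with nApoE4, without overlap. Of 3 apolipoprotein genes tested besides Apoe, Apoa2 fell by 0.87 (SE 0.132) and 0.44 (SE 0.158) on the log2 scale. Its span overlaps by 951 bases that of Tomm40l, which had 1586 to 4845 counts per sample. Apoc1 fell by 0.70 (SE 0.176) with nApoE4, while Clu did not pass (-0.15, SE 0.107, and -0.01, SE 0.053). The other 7 of the list, among them Apoc2 and Apod, were too low to test.

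**Figure D5:**
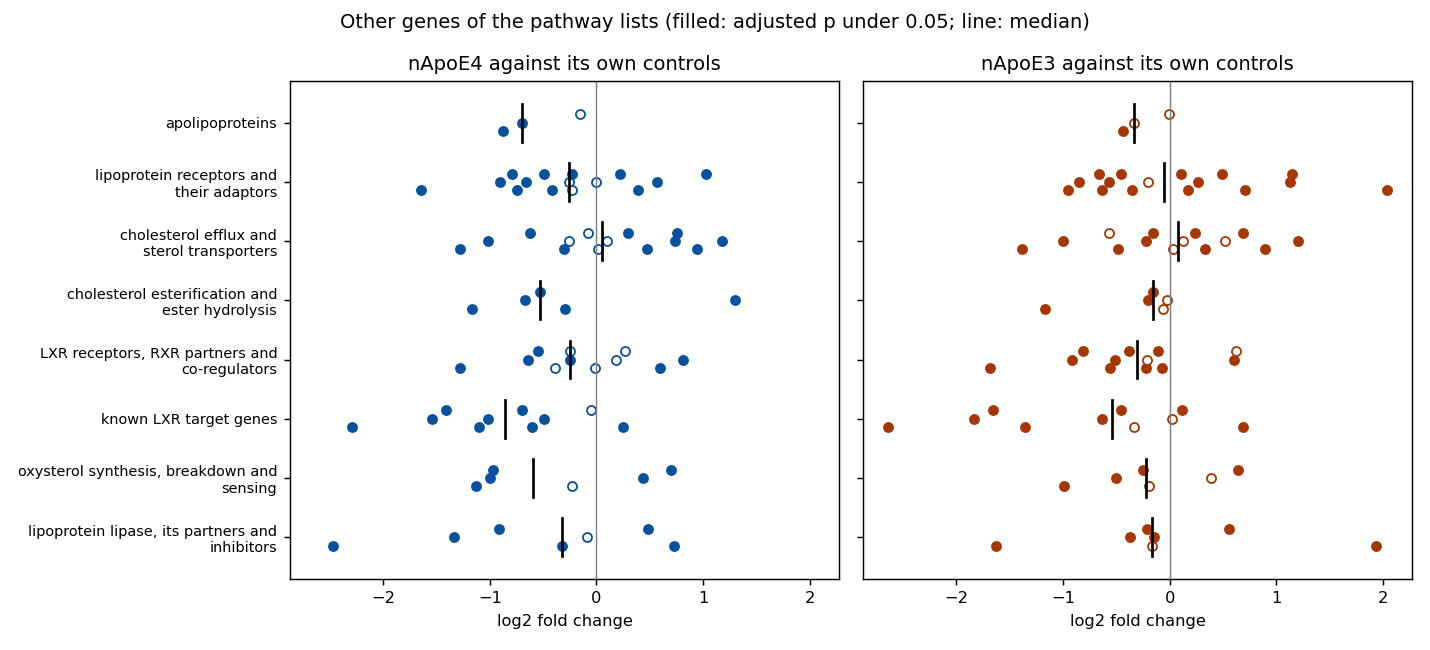
Log2 fold change of the other genes of the 8 pathway lists, nApoE4 left and nApoE3 right, 1 point per gene, filled where the adjusted p was under 0.05, with a line at the list's median. The LXR targets have medians of -0.86 and -0.54, and in the receptor list points lie on both sides of 0.

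The genes with the pattern most like each of these were sought over the 11 samples, by the root-mean-square difference of log2 CPM taken relative to the untreated mean of each experiment, among 11682 genes. The closest were Bckdha to Apoe (0.0422), Sfxn5 to Lrp1 (0.0952), Ptch1 to Lrp8 (0.0444), Soga1 to Abca1 (0.0488), Dag1 to Abcg1 (0.0579), Fam192a to Lpl (0.0252), Ybx3 to Nr1h2 (0.0223) and Polr3d to Nr1h3 (0.0355). None of them was on the pathway lists. The next were Armc10 for Apoe, Gm22 and Zfhx3 for Lrp1, Fmn1 and Myo9b for Lrp8, Rapgef1 and LOC105243337 for Abca1, Hs6st1 and Mfsd12 for Abcg1, Usp5 and Preb for Lpl, Afg3l1 and Sypl for Nr1h2, and Mak16 and Mtmr10 for Nr1h3. The samples of an experiment share their controls in this measure, which is a description.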

How the data were processed

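Total RNA of BV2 cells was sequenced in 11 samples. Per the labels and the submitters' processing notes, reads were trimmed with Trim Galore 0.5.0, checked with FastQC 0.11.8, mapped to GRCm38.p6 with HISAT2 2.1.0 and counted with HTSeq 0.11.0, and the authors deposited raw counts of reads per gene for each sample. The strand and overlap settings of the counting and its annotation are not given in the sources used here. Genes took 76 to 77.7% of tallied reads, and ambiguous reads, which went to no gene, 3.24 to 3.56%. Tally lines were left out of library sizes and tests.

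The tests were run in edgeR 4.0.16 under R 4.3.3, on genes kept by filterByExpr, with TMM scaling, the quasi-likelihood fit over all genes and p-values adjusted by Benjamini and Hochberg, called below 0.05. ApoE4 samples were set against ControlA and ApoE3 samples against ControlB. The difference of the responses was a contrast of 4 group means over 11 samples, and ControlB was compared with ControlA. SE is the size of the log2 fold change over the root of F, and intervals are 95%. CPM used TMM-scaled library sizes over 11 samples. Depth limits counting error alone, and 3 counts were taken as the floor. Positions and exon lengths came from GENCODE M21 on GRCm38, where spans for the nesting count came from RefSeq. The fit was tested on simulated data, where 200 genes were changed, and in all 4 comparisons the share of false calls came out somewhat above the nominal threshold.

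All 10 genes are named. From each list, up to 3 other genes per fragment were named, those with the largest change among called genes whose mean reached 1 CPM in a group of the comparison, with no overlap of treated and control samples, and for likeness the 3 closest genes with at least 1 CPM. Values of named genes with a fragment for which the rule did not name them, and Trem2, were chosen after their values were seen. Some genes that this rule names are not reported here. Genes and lists were chosen with earlier results of these data known. Alternatives were other filters on low counts, DESeq2 1.42.0 (its size factors and its test) and all 11 samples in 1 fit. Further ones were a replicate block, a fold above 2 and leaving out each sample. Limma 3.58.1 was loaded with edgeR.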

Additional observations from a re-analysis of the deposited data

Results flagged for a closer look

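For 3 of the 8 measured genes, the response to nApoE4 differed from the response to nApoE3 by edgeR's quasi-likelihood test of the difference between the log2 fold changes. Of all 15287 genes tested, 28.3% passed in this contrast, so the count is not read as a trait of these 8 genes. Abca1 differed by -0.51 (adjusted p = 0.0169), Abcg1 by -0.43 (adjusted p = 0.00403) and Nr1h3 by -0.26 (adjusted p = 0.0151). Abca1 was higher in 2 of 2 nApoE3 samples than in all their controls and overlapped with its controls with nApoE4. Abcg1 was lower, and Nr1h3 higher, in every treated sample of both experiments. Each fragment was used in 1 experiment, so a difference between fragments and one between experiments cannot be told apart.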

How the results depend on the processing

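Of 392 values of single genes under alternatives, 12 lost their call, 11 gained one, 3 reversed and the others kept their direction and their side of the threshold. The reversed ones were near 0 and not called: the difference of the responses of Nr1h2 was -0.0059 without ControlA replicate 1 (up to 0.0692 without ControlA replicate 2), and that of Abcg1 between ControlB and ControlA was 0.0022 without ControlA replicate 3 and 0.0018 without ControlB replicate 3 (down to -0.0538 without ControlA replicate 2).

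With a fold above 2, the genes called among the 8 were 1 with nApoE4 (Abcg1), 0 with nApoE3, 0 for the difference of the responses and 2 between the controls, and those of the pathway lists were 15, 13, 5 and 13, against 52, 55, 27 and 52. Over all genes tested, 17.7%, 16.2%, 5.93% and 17.9% passed with this fold. This setting asks for more. For the other settings the share of all genes called was not tallied, so their counts are not read as a trait of these genes. Leaving out 1 sample gave 5 to 7 genes called of the 8 with nApoE4, 7 to 7 with nApoE3, 1 to 6 for the difference of the responses (6 without ControlA replicate 2, 1 without ApoE3 replicate 1) and 5 to 7 between the controls, where leaving out an ApoE3 sample assumes that the remaining one varies like the others. For the pathway lists the ranges were 49 to 57, 51 to 54, 20 to 32 and 45 to 55.

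Samples of the same replicate number did not deviate together (correlations of -0.17 to -0.0079 over 15287 genes), so the numbers were not taken as pairs. With a replicate block, 5 of the 8 genes were called with nApoE4, where Lpl lost its call (adjusted p = 0.151), 7 with nApoE3 and 0 for the difference of the responses, where Abca1, Abcg1 and Nr1h3 had adjusted p = 0.115, 0.0638 and 0.107. For the pathway lists it gave 48, 52 and 18. With all 11 samples in 1 fit, 6 of the 8 genes were called with nApoE4 and 7 with nApoE3, as in the main fits. The adjusted p with nApoE3 rose there, to 0.0223 for Lrp1, 0.00251 for Lrp8, 0.0364 for Lpl and 8.43e-05 for Abca1. With nApoE4 it fell, to 0.0014 for Lpl. The biological coefficient of variation was 0.0262 in the main nApoE3 fit, with 2 treated samples, and 0.0838 in the main nApoE4 fit. Of the other single values, Nr1h3 lost its difference of responses when all genes with 1 count were kept (adjusted p = 0.084), Nr1h2 passed with nApoE3 when 10 counts were asked of every sample (adjusted p = 0.0478), and Lrp8 passed between the controls with DESeq2 (adjusted p = 0.0322) and with all genes of 1 count kept (adjusted p = 0.0165). The cause was not tested. The depth does not allow a statement on Ch25h.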
